A study of Mus musculus with 7 samples.

Results

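The classical MHC class I presentation pathway was followed through 10 genes, H2-K1, H2-D1, B2m, Tap1, Tap2, Tapbp, Psmb8, Psmb9, Psmb10 and Nlrc5, which were taken by symbol from the 32285 genes counted in mouse brain tumours. All 10 were found, and each is described in 5 classes of cells (tumour, microglia, macrophage, endothelial and T) of 7 single-cell libraries. The tumours were grown in C57BL/6 mice aged 7 to 10 weeks, labelled wild type, from the glioma line NSCG, which expresses mCherry, carries EGFRvIII and is labelled Arf/Ink4a-/-. Each library pooled the tumours of at least 2 mice taken at about day 14. UT (1 library) was untreated. IgG (2 libraries) received an IgG2b isotype antibody at 10 mg/kg. BP (2 libraries) received 5 mg/kg of B20, which blocks VEGF, together with 10 mg/kg of anti-PD-L1. BPI (1 library) received both of these and, daily, 10 mg/kg of the PI3K inhibitor IPI-145. These 3 groups had 3 rounds of treatment. CD40 (1 library) received an agonist antibody against CD40 at 100 ug in 2 doses, and whether a dendritic cell vaccine went with it is unclear from the labels. The comparisons ask how tumour cells and the cells around them differ between treatments. IgG animals of the arm with IPI-145 also had the gavage diluent, and which IgG library that was is unclear from the labels. The tumour is labelled as a single transplanted line.

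MHC class I molecules carry peptides from inside a cell to its surface, where CD8 T cells read them. The proteasome cuts the peptides, the TAP transporter moves them into the endoplasmic reticulum, tapasin holds an empty class I heavy chain at the transporter until a peptide binds, and beta-2-microglobulin completes the complex. Interferon gamma from T and NK cells raises nearly all of these genes, partly through the transactivator NLRC5. Cells of the healthy brain are known for low class I levels, and low class I on tumour cells hides them from CD8 T cells.

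Promoter stretches of the heavy chains and of B2m are shown because these genes held every motif searched for in the 250 bases before the start. In the RefSeq promoter table (GRCm38.p6), 8 of the 10 genes had an entry, and the 250 bases before the start were searched on both strands for 4 motifs. These were the IRF core AANNGAAA, which interferon regulatory factors bind, an NF-kB type motif (GGGA and CC parted by 4 bases of any kind), the TGACG motif of the X2 box, and the CCAAT motif of the Y box. H2-K1, H2-D1 and B2m each held all 4, as did 65 of 32851 promoters in the table (0.198%). Singly, the motifs were in 21.3%, 17.6%, 17.8% and 33.8% of promoters. The stretches below run 5′ to 3′ on the gene's own strand, with the motifs in capitals, at chr17:34000348-34000517 (minus strand) for H2-K1, chr2:122147517-122147685 (plus strand) for B2m and chr17:35262923-35262951 (plus strand) for the interferon part of H2-D1, which lies within an exon of a longer H2-D1 transcript.
H2-K1: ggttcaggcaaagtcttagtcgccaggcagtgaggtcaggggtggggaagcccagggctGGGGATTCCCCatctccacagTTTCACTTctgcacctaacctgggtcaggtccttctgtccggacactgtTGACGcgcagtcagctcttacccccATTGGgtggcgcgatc
B2m: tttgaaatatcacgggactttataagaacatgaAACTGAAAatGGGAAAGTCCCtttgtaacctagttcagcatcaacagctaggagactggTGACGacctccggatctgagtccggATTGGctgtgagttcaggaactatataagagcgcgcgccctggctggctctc
H2-D1: GGGGATTCCCCatctcctcagTTTCACTT
The heavy chains had the NF-kB type motif upstream of the IRF core, and B2m had them in the opposite order. Tap1 and Psmb9, which start head to head, held the TGACG and CCAAT motifs, Tapbp held CCAAT alone, and Psmb8 and Psmb10 held none of the 4 in this window. Tap2 and Nlrc5 had no entry. A match describes letters only and shows no binding.

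Total depth was 68997476 to 186793886 unique molecular identifiers (UMIs, the counted RNA molecules) per library. The libraries were not interchangeable. Library names put IgG replicate 1, BP replicate 2 and BPI in one consecutive run (set A below) and CD40 and IgG replicate 2 in another (set B), while BP replicate 1 and UT stand alone. Tumour cells followed these runs: clusters c18, c20 and c21 held most tumour-like cells of set A, c12, c16, c17 and c22 those of set B, c9 those of BP replicate 1, and c3 and c4 those of UT. The barcodes of UT come from another list than those of the other 6 libraries. Xist, which is transcribed in female cells, had 0 UMIs in the microglia-like, endothelial-like and T-like cells of UT and 1 UMI in its macrophage-like cells, against 294 to 1105 CPM in the same classes of the other 6 libraries. In tumour-like cells Xist was at 0.069 to 2.04 CPM, and Cdkn2a, the gene of the Arf/Ink4a locus, was at 156 to 198 CPM although the locus is labelled as lost. The tumour-like cells also differed by run in Ddx3y, a gene of the Y chromosome (at most 6.14 CPM in each library of set A, at least 39.8 CPM in each of the other 4), and in Egfr (60.2 CPM in UT and 161 to 226 CPM in the other 6). In microglia-like, macrophage-like, endothelial-like and T-like cells Ddx3y was at 40.4 to 70.0 CPM in UT, against 0 to 8.19 CPM in the other 6 libraries. The labels do not give host sex. Pairs of libraries shared 0 to 26 cell barcodes. Cells of a class were summed within a library, and levels are counts relative to all UMIs of that class in that library, scaled to CPM. Such a sum does not tell fewer expressing cells from less RNA per cell, and single tumour-like cells are described after the sums.

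Classes were named from markers after clustering without the 10 genes and without 36 other genes of the pathway. Tumour-like cells numbered 2627 to 5918 per library, microglia-like cells 50 to 854, macrophage-like cells 68 to 1865, T-like cells 39 to 1298 and endothelial-like cells 6 to 152. T-like cells came from 1 cluster in every library. BP replicate 1 drew its microglia-like cells mostly from clusters c11.1, c11.2 and c11.4 and its macrophage-like cells from c24 (88.8%), which is led by Ccl8, Ccl24, Chil3, Mrc1 and Arg1. The other 6 libraries drew theirs mostly from c14 and c8. Of the microglia-like cells of BP replicate 1, 41.2% were in c11.4, where 9 microglia and 9 macrophage markers were raised. The order of the marker lists settled this tie, with microglia first. Unnamed cells were 5.32% to 28.3% of a library.

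In the fit of all libraries, class I genes took a larger share of the UMIs in host cells than in tumour cells. A share is not an amount per cell. The median cell held 10568 to 21545 UMIs in the tumour-like cells of a library and 2390 to 6103 in T-like cells. Levels in macrophage-like and T-like cells were higher than in tumour-like cells for all 10 genes, microglia-like cells in 6 and endothelial-like cells in 5. The test was edgeR quasi-likelihood on summed UMIs with the library as a block, at an adjusted p under 0.05. The order differed in some libraries. In UT and BP replicate 1, T-like cells lay below tumour-like cells for Tap1, Tap2, Psmb8, Psmb9 and Psmb10, and above for the other genes. Psmb9 was at 501 against 697 CPM in UT and 310 against 474 CPM in BP replicate 1. Macrophage-like cells of BP replicate 1 lay below tumour-like cells for Psmb8 (712 against 855 CPM) and Psmb9 (441 against 474 CPM). The 14062 genes tested give the background. Against tumour-like cells, 33.7% of them were higher and 39.4% lower in macrophage-like cells, 29% and 36.5% in T-like cells, 31.7% and 39.4% in microglia-like cells, and 25.9% and 28.3% in endothelial-like cells. The median of all genes lay between -0.17 and -0.11 in these 4 contrasts (log2). With another scaling (RLE factors) it lay between -0.26 and -0.07, so a log2 difference of about that size is within what the scaling decides.

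**Figure D1:**
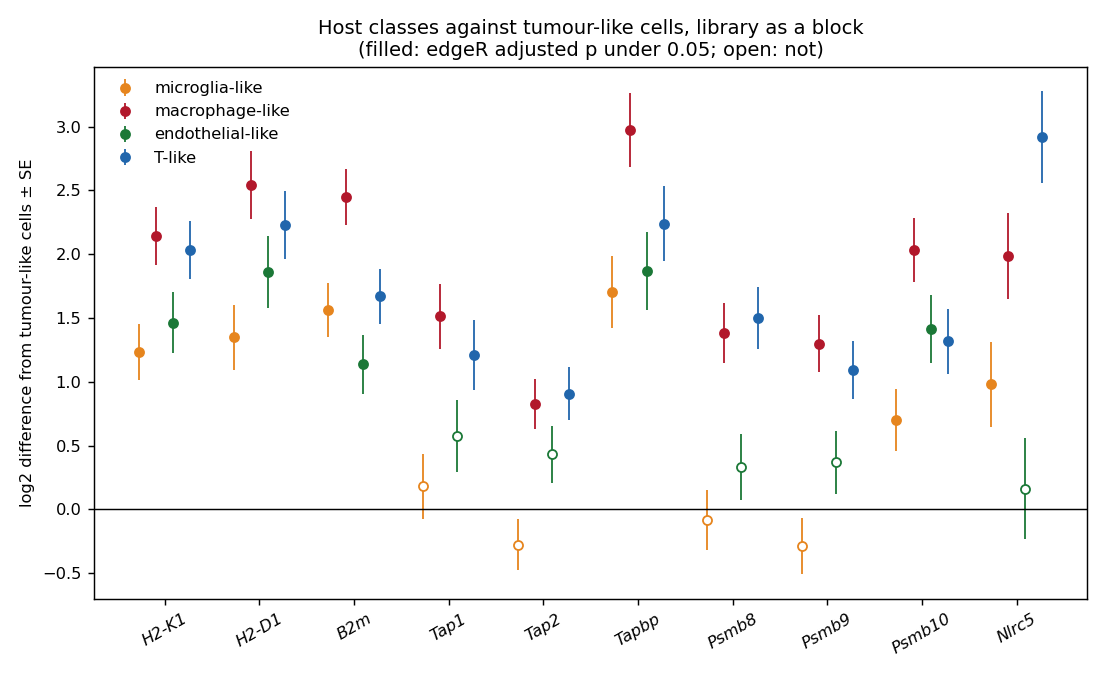
Log2 difference of each gene between a host class and tumour-like cells (y axis, with SE) for the 10 genes (x axis), in 1 fit with the library as a block. Filled points passed an adjusted p under 0.05: all 10 in macrophage-like and T-like cells, 6 in microglia-like and 5 in endothelial-like cells.

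The presenting complex itself was higher in all 4 host classes. H2-D1, a heavy chain, was 2.54 ± 0.27 higher in macrophage-like than in tumour-like cells (log2 difference ± SE; adjusted p 1.771e-09), 2.23 ± 0.27 higher in T-like cells (2.815e-08), 1.86 ± 0.28 in endothelial-like cells (2.544e-06) and 1.35 ± 0.26 in microglia-like cells (3.342e-05). B2m, the light chain, had 2.45 ± 0.22 (7.385e-11), 1.67 ± 0.21 (1.065e-07), 1.14 ± 0.23 (0.0001395) and 1.56 ± 0.21 (2.357e-07) in the same order. H2-K1, the second heavy chain, had 2.14, 2.03, 1.46 and 1.23, each past the test. Tapbp, which encodes tapasin, had the largest macrophage difference of the 10 genes (2.97 ± 0.29, adjusted p 4.135e-10), and Nlrc5, the transactivator, the largest T-cell difference (2.92 ± 0.36, 5.005e-08).

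In their class I genes microglia-like cells stood apart from macrophage-like cells. They were above tumour-like cells in H2-K1, H2-D1, B2m, Tapbp (1.70 ± 0.28), Nlrc5 (0.98 ± 0.33) and Psmb10 (0.70 ± 0.24). In UT, however, they lay below tumour-like cells for Tapbp (243 against 286 CPM) and Psmb10 (235 against 310 CPM). The transporter and the other immunoproteasome subunits showed no difference that passed the test: Tap1 was at 0.18 ± 0.25, Tap2 at -0.28 ± 0.20, Psmb8 at -0.08 ± 0.23 and Psmb9 at -0.29 ± 0.22. Without the filter on low counts Tap2 passed as lower in microglia-like cells, and Psmb10 no longer passed (0.497, edgeR adjusted p 0.08351), nor did it with free RNA subtracted (0.05938). Set against microglia-like cells directly, macrophage-like cells were higher in all 10 genes, from 0.89 ± 0.21 for B2m (adjusted p 0.001211) to 1.59 ± 0.23 for Psmb9 (2.342e-06). In BP replicate 1 alone, macrophage-like cells lay below microglia-like cells for H2-D1 (5126 against 5548 CPM) and Nlrc5 (166 against 203 CPM). The call of Nlrc5 in this contrast (1.003 ± 0.35, edgeR adjusted p 0.02092) was lost with RLE factors (0.884, edgeR adjusted p 0.05255), without IgG replicate 1 (0.9056, adjusted p 0.05896) and without BP replicate 2 (0.7629, adjusted p 0.1183). In that contrast 22.4% of all genes were higher and 18.1% lower (3150 and 2542 genes), and with RLE factors 2627 were higher and 3223 lower, as the median of all genes moved from 0.05 to -0.07. Endothelial-like cells were above tumour-like cells in H2-K1, H2-D1, B2m, Tapbp (1.87 ± 0.30) and Psmb10 (1.41 ± 0.27), while Tap1, Tap2, Psmb8, Psmb9 and Nlrc5 (0.16 to 0.57) did not pass.

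Of the 36 other genes of the pathway, 28 were higher and 2 lower in macrophage-like than in tumour-like cells, 19 and 6 in T-like cells, 24 and 6 in microglia-like cells, 20 and 2 in endothelial-like cells, and 15 and 3 in macrophage-like against microglia-like cells. The largest differences that passed, above tumour-like cells, were those of Ifng (10.71), Ifngr1 (4.49) and Socs1 (2.88) in T-like cells, of Irf8 (3.95), Sppl2a (2.99) and Psme2 (2.84) in macrophage-like cells, of Irf8 (4.21), Ifngr1 (3.54) and Nfkb1 (2.43) in microglia-like cells, and of Irf9 (2.00), Ifnar1 (1.97) and Ifnar2 (1.88) in endothelial-like cells. Ifng encodes interferon gamma, Ifngr1 part of its receptor, Socs1 an inhibitor of cytokine signalling, Irf8 and Irf9 interferon regulatory factors, and Psme2 a subunit of the proteasome activator PA28. Lower in T-like cells were Ifngr2 (-1.64), Psmb6 (-0.91) and the chaperone gene Calr (-0.90). The classes were named from marker genes of the same cells.

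Across the 7 libraries the 10 genes moved together within tumour-like cells, and the order of the libraries was nearly the same for each. UT and BP replicate 1 were high, BPI came next, BP replicate 2 lay lower, and both IgG libraries and CD40 were low. The ratio of the highest to the lowest library ran from 5.16 for Tap2 to 16.4 for Tapbp, with a median of 10.9. In the other classes the median ratio was 6.33 (macrophage-like), 5.25 (microglia-like), 7.09 (endothelial-like, 5 libraries with at least 20 cells) and 2.42 (T-like). Whether these ratios differ between classes was not tested.

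**Figure D2:**
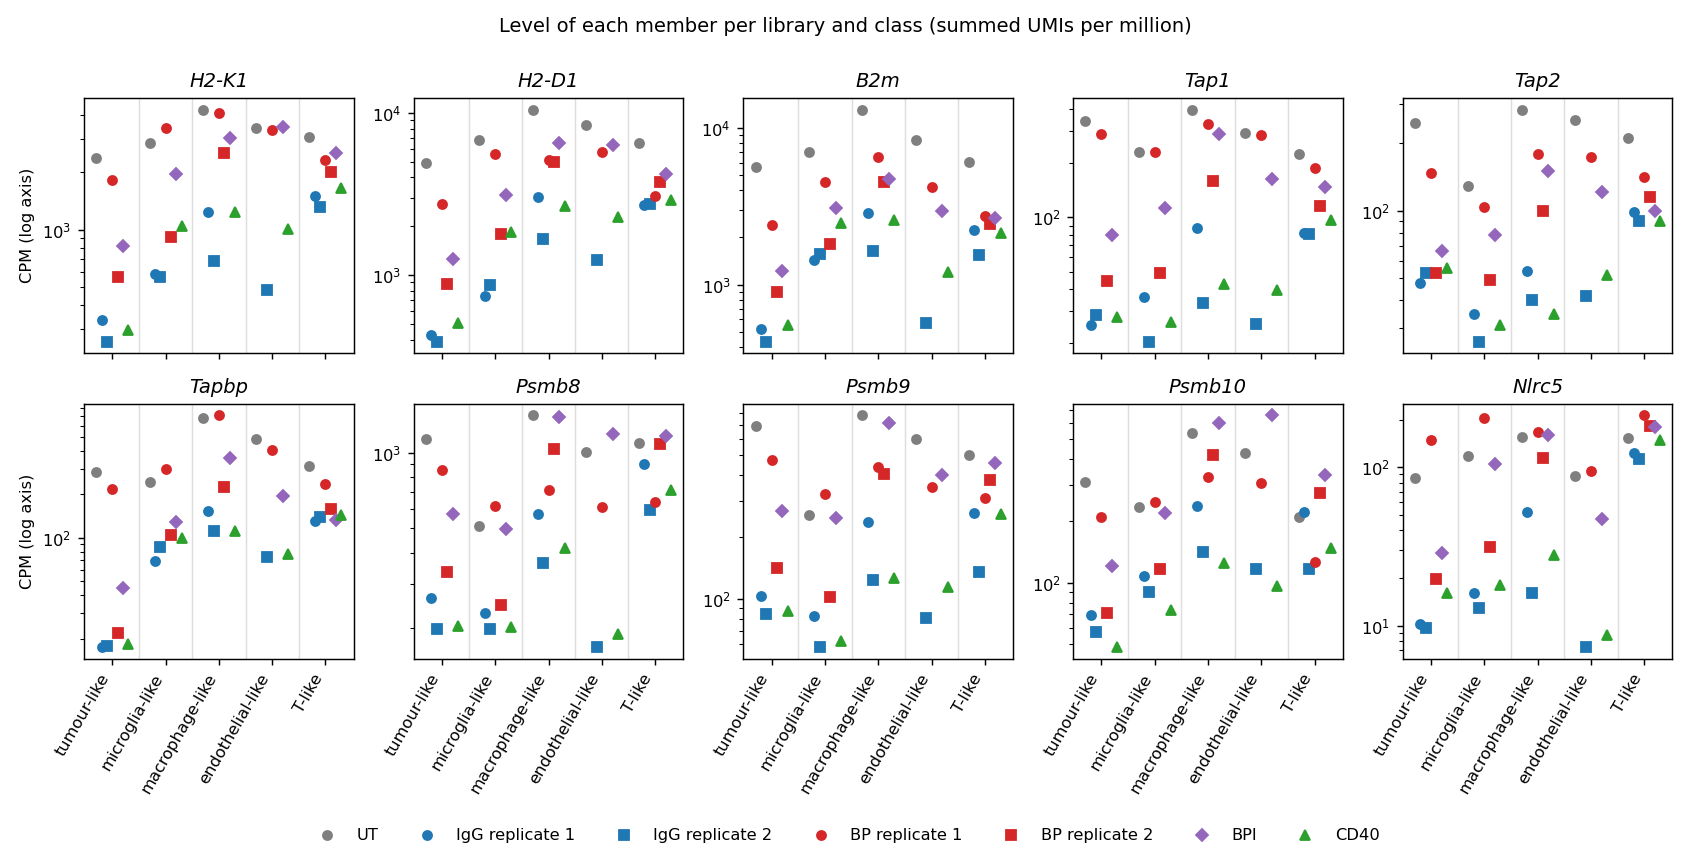
Level of each of the 10 genes (1 panel each) in CPM on a log axis, by class (x axis), with 1 point per library holding at least 20 cells of the class. UT (grey) and BP replicate 1 (red circles) lie at the top in tumour-like cells and both IgG libraries (blue) and CD40 (green) at the bottom, while the points of T-like cells lie close together.

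In tumour-like cells the heavy chains and the light chain were higher in UT, in both BP libraries and in BPI than in either IgG library, but no gene passed the test. Relative to IgG replicate 1 the 3 genes were at 1.68 to 2.08 times its level in BP replicate 2, 2.34 to 2.95 times in BPI and 7.02 to 11.5 times in UT. H2-K1 (ENSMUSG00000061232, GRCm38 chromosome 17, 33996017 to 34000347, minus strand) was at 2365 CPM in UT, 337 CPM (replicate 1) and 258 CPM (replicate 2) in IgG, 1815 and 566 CPM in BP in the same order, 820 CPM in BPI and 296 CPM in CD40. All UT, BP and BPI libraries lay above both IgG libraries, and CD40 lay between them. The group levels were 297 ± 55.9 CPM in IgG and 1190 ± 883 CPM in BP (SD, n = 2), a difference of 1.92 ± 0.58 in log2 (edgeR, adjusted p 0.9999).

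H2-D1 (ENSMUSG00000073411, chromosome 17, 35262730 to 35267499, plus strand) was at 4898 CPM in UT, 425 and 388 CPM in IgG, 2734 and 884 CPM in BP, 1255 CPM in BPI and 503 CPM in CD40. Every library outside IgG exceeded both IgG libraries. The BP difference was 2.08 ± 0.57 (407 ± 26.3 and 1809 ± 1308 CPM in IgG and BP, SD, n = 2; edgeR adjusted p 0.9999), and the UT difference 3.55 ± 0.68 (adjusted p 0.389). B2m (ENSMUSG00000060802, chromosome 2, 122147686 to 122153083, plus strand) was at 5599 CPM in UT, 522 and 432 CPM in IgG, 2382 and 897 CPM in BP, 1219 CPM in BPI and 550 CPM in CD40. It kept the same order, with BP at 1.72 ± 0.52 and UT at 3.51 ± 0.63 above IgG.

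Tap1 and Tapbp had wider gaps between the BP libraries than the heavy chains did, and Tap2 did not. Tap1 (ENSMUSG00000037321, chromosome 17, 34187553 to 34197225, plus strand), one chain of the transporter, was at 341 CPM in UT, 25.4 and 28.7 CPM in IgG, 291 and 44.2 CPM in BP, 80.2 CPM in BPI and 27.9 CPM in CD40. BP replicate 1 was thus 6.59 times BP replicate 2, and the BP difference from IgG was 2.54 ± 0.83. Tapbp (ENSMUSG00000024308, chromosome 17, 33915899 to 33929292, plus strand) was at 286 CPM in UT, 17.45 and 17.72 CPM in IgG, 218 and 22.0 CPM in BP, 45.1 CPM in BPI and 18.25 CPM in CD40. BP replicate 2 was barely above IgG, and BP replicate 1 was 9.92 times as high. Tap2 (ENSMUSG00000024339, chromosome 17, 34203527 to 34216321, plus strand), the other chain, was at 247 CPM in UT, 47.8 and 52.7 CPM in IgG, 147 and 52.5 CPM in BP, 66.1 CPM in BPI and 55.5 CPM in CD40. It varied least, and its BP and IgG libraries overlapped.

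The 3 immunoproteasome subunits, which replace constitutive catalytic subunits and change which peptides are made, followed the same order. Psmb8 (ENSMUSG00000024338, chromosome 17, 34197721 to 34201454, plus strand) was at 1135 CPM in UT, 264 and 199 CPM in IgG, 855 and 336 CPM in BP, 573 CPM in BPI and 204 CPM in CD40. Psmb9 (ENSMUSG00000096727, chromosome 17, 34181987 to 34187764, minus strand) was at 697 CPM in UT, 103 and 84.2 CPM in IgG, 474 and 142 CPM in BP, 269 CPM in BPI and 87.7 CPM in CD40. In both, UT, BP and BPI exceeded IgG, and CD40 lay between the IgG libraries. Psmb10 (ENSMUSG00000031897, chromosome 8, 105935735 to 105938444, minus strand), which lies outside the MHC region of chromosome 17 that holds 7 of the 10 genes, was at 310 CPM in UT, 69.6 and 57.8 CPM in IgG, 209 and 71.0 CPM in BP, 121 CPM in BPI and 48.5 CPM in CD40, so that CD40 was below both IgG libraries. Nlrc5 (ENSMUSG00000074151, chromosome 8, 94434356 to 94527272, plus strand) was at 85.7 CPM in UT, 10.2 and 9.63 CPM in IgG, 148 and 19.6 CPM in BP, 28.8 CPM in BPI and 16.0 CPM in CD40. It was the only one of the 10 genes with BP replicate 1 above UT in tumour-like cells.

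Counted over the 10 genes, 9 were above both IgG libraries in both BP libraries (all but Tap2), beside 9.35% of the 20217 genes tested in tumour-like cells. All 10 were above IgG in BPI (16.8% of genes) and in UT (40.1% of 20010 genes), and 5 in CD40 (46%), a share near that of all genes. The median log2 difference from IgG was 1.82 for BP, 1.61 for BPI, -0.09 for CD40 and 3.01 for UT, and the median over all genes lay between -0.06 and 0.00026. By edgeR 0 of the 10 genes, and 0% of all genes, passed an adjusted p of 0.05 in each of these 4 contrasts. At an unadjusted p under 0.05 there were 8 of the 10 genes for BP, 4 for BPI, 0 for CD40 and 10 for UT, and 389, 196, 14 and 2438 genes in all. DESeq2 called 1 of the 10 for BP, 0 for BPI, 0 for CD40 and 10 for UT, among 48, 8, 0 and 807 genes. All 4 contrasts share the same 2 IgG libraries. UT also differs from IgG in its barcode list and, in host cells, in Xist and Ddx3y, which differ between the sexes. The part of host sex and of the barcode list in the UT differences was not tested.

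**Figure D3:**
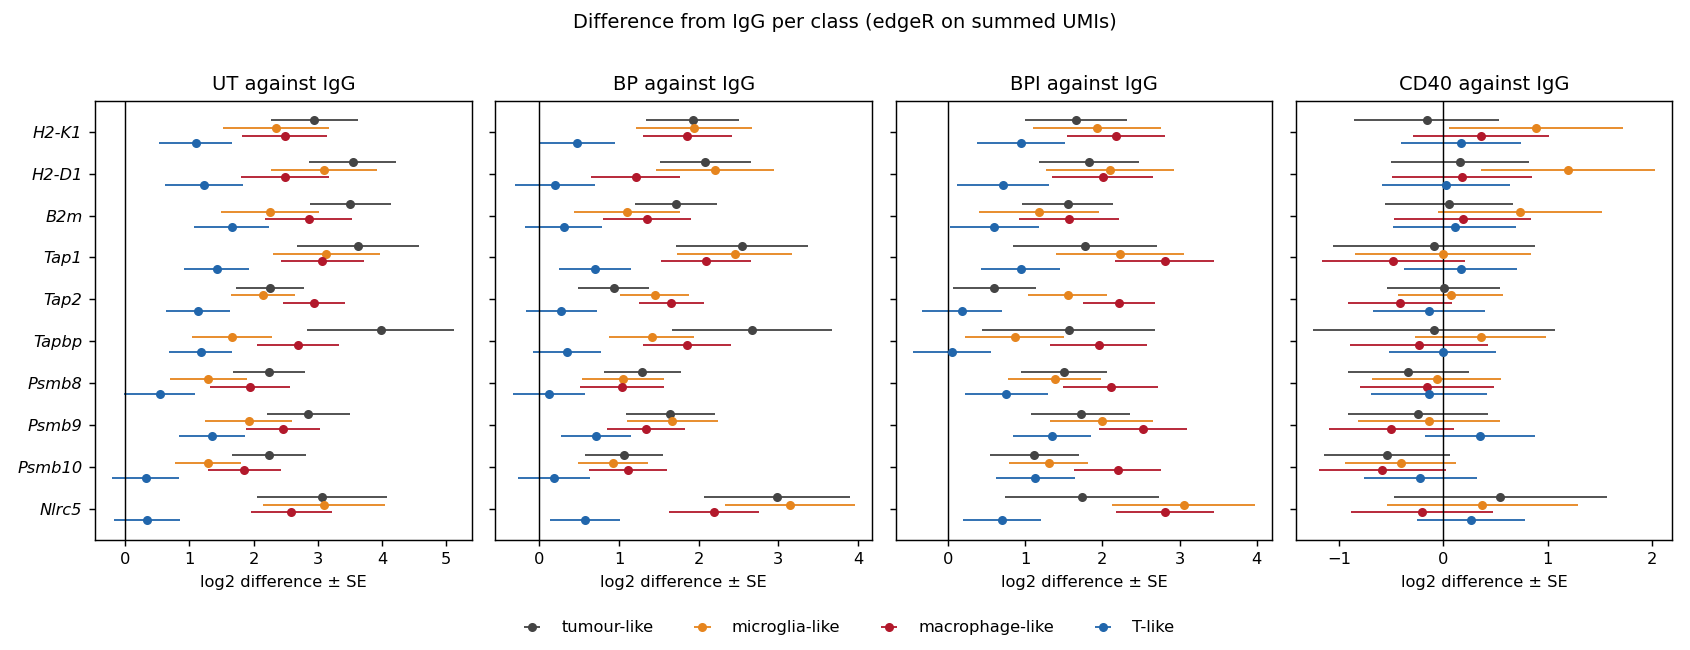
Log2 difference from IgG (x axis, with SE) for the 10 genes (y axis) in 4 classes, in 1 panel per group. No point passed the adjusted test; the points for UT, BP and BPI lie to the right of 0 in all 4 classes in the fit shown. In T-like cells 13 of 360 values under other settings lay left of 0, for H2-D1, Psmb8 and Psmb10 in BP, Tapbp in BPI (also with RLE factors) and Psmb10 in UT. Those for CD40 scatter about 0.

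Values within a set of consecutive libraries are the closest comparison the labels allow, and each sets 1 library against 1. In tumour-like cells BP replicate 2 had 1.02 (Psmb10) to 2.08 (H2-D1) times the level of IgG replicate 1, with a median of 1.53. BPI had 1.38 (Tap2) to 3.16 (Tap1) times that level, with a median of 2.51, and 1.26 to 2.05 times that of BP replicate 2. CD40 had 0.84 (Psmb10) to 1.66 (Nlrc5) times the level of IgG replicate 2, with a median of 1.05. Between the replicates, BP replicate 1 had 2.55 to 9.92 times the level of BP replicate 2, against the 1.02 to 2.08 between BP replicate 2 and IgG replicate 1. BP replicate 1 has no IgG library in its own run. Genes of the interferon response outside the pathway (20 genes) moved with the 10 in tumour-like cells: their summed level was 10062 CPM in UT, 1181 and 801 CPM in IgG, 7035 and 1611 CPM in BP, 3848 CPM in BPI and 703 CPM in CD40. Macrophage markers in the tumour-like sums were 108 CPM in UT, 15.7 and 7.76 CPM in IgG, 110 and 28.3 CPM in BP, 47.4 CPM in BPI and 13.5 CPM in CD40, and their part in the result was not tested.

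In microglia-like cells UT and BP replicate 1 were again the 2 highest libraries and BPI came next for each of the 10 genes. BP replicate 1 lay above UT in 6 of them (H2-K1, Tapbp, Psmb8, Psmb9, Psmb10 and Nlrc5). H2-D1 in them was at 6771 CPM in UT, 746 and 873 CPM in IgG, 5548 and 1790 CPM in BP, 3118 CPM in BPI and 1838 CPM in CD40. B2m was at 6999 CPM in UT, 1426 and 1573 CPM in IgG, 4493 and 1824 CPM in BP, 3057 CPM in BPI and 2470 CPM in CD40. H2-K1 was at 2863 CPM in UT, 584 and 565 CPM in IgG, 3402 and 916 CPM in BP, 1968 CPM in BPI and 1050 CPM in CD40. CD40 thus lay above both IgG libraries in all 3 parts of the presenting complex, by 1.199 ± 0.83 for H2-D1, 0.89 ± 0.84 for H2-K1 and 0.74 ± 0.78 for B2m, none of which passed the test. Tap1 (26.4 CPM in CD40; 35.9 and 20.4 CPM in IgG), Psmb8 (202 CPM; 230 and 199 CPM) and Psmb9 (62.3 CPM; 83.0 and 58.3 CPM) lay between the IgG libraries, and the interferon-response list summed to 469 CPM in CD40 against 1613 and 557 CPM in IgG. Nlrc5 had the widest range in microglia-like cells, with 12.9 CPM in IgG replicate 2 and 203 CPM in BP replicate 1.

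In microglia-like cells all 10 genes exceeded both IgG libraries in BP (14.4% of 12346 genes), BPI (24.8%) and UT (34.5% of 9851 genes), and 5 in CD40 (32.1%). The median differences were 1.56, 1.74, 2.20 and, for CD40, 0.22. By edgeR 0 of 10 genes and 0% of all genes passed in each contrast, with 7 (BP), 6 (BPI), 9 (UT) and 0 (CD40) of the 10 at an unadjusted p under 0.05, and 566, 397, 743 and 47 genes in all. DESeq2 called 2 of the 10 for BP, 3 for UT and 0 for BPI and CD40, among 42, 51, 20 and 0 genes. The counts rest on single libraries: without BP replicate 2 edgeR called 10 for BP, 5 for BPI and 8 for UT, beside 5.54%, 0.934% and 1.68% of all genes. Without BP replicate 1 it called 5 for BPI and 8 for UT (1.21% and 1.55% of all genes). UT has only 50 of these cells, and BP replicate 1 has them from other clusters than IgG. Of the UT cells 30% were in c11.1 and 10% in c11.2. The IgG libraries had 2.13% and 0.421% in c11.2 and the rest in c14. The microglia-like cells of BP replicate 1 had microglia markers at 5437 CPM, against 10089 to 15357 CPM in the other 6 libraries. They also had the highest levels of macrophage markers (1844 CPM, against 470 to 1339 CPM) and endothelial markers (251 CPM, against 33.2 to 79.2 CPM), whose part in the result was not tested. In IgG replicate 1 free RNA could supply 84.2% of the Psmb9 counts, 74.4% of those of Psmb8 and 9.75% of those of Tapbp, and after its subtraction 0 of 10 passed in each contrast. The estimate depends on the profile: with barcodes of 20 to 50 UMIs, the share in microglia-like cells of BPI was 85.8% for Psmb8, 42.1% for H2-D1 and 32.7% for H2-K1, against 9.37%, 4.397% and 3.80% with barcodes of 10 to 100 UMIs.

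Macrophage-like cells held the highest levels of the presenting complex in UT. B2m was at 13013 CPM in UT, 2875 and 1647 CPM in IgG, 6489 and 4475 CPM in BP, 4686 CPM in BPI and 2568 CPM in CD40. H2-D1 was at 10437 CPM in UT, 3012 and 1668 CPM in IgG, 5126 and 4990 CPM in BP, 6553 CPM in BPI and 2647 CPM in CD40, and H2-K1 at 4260, 1241 and 683, 4112 and 2535, 3036 and 1237 CPM in the same order. UT, BP and BPI lay above both IgG libraries throughout. Unlike in tumour-like cells, the BP libraries lay close to each other for H2-D1 (5058 ± 96.2 CPM, SD, n = 2), and the IgG libraries lay apart. Tap1 was at 395 CPM in UT, 87.7 and 33.4 CPM in IgG, 327 and 160 CPM in BP, 289 CPM in BPI and 42.4 CPM in CD40.

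The 10 genes all exceeded both IgG libraries in macrophage-like cells of BP (13.8% of 11807 genes), BPI (19.1%) and UT (25.5% of 12535 genes), and 0 did so in CD40 (30.1%), where Tap2 and Psmb10 were below both. Microglia markers in the macrophage-like sums ran the other way, at 740 CPM in UT, 1442 and 3066 CPM in IgG, 431 and 939 CPM in BP, 614 CPM in BPI and 2016 CPM in CD40. Endothelial markers in these sums ran with the 10 genes. They were at 197 CPM in UT, 77.6 and 47.2 CPM in IgG and 572.5 and 127 CPM in BP. In BPI they were at 165.5 CPM and in CD40 at 75.9 CPM. The part of either marker list in the result was not tested. By edgeR 0 of 10 passed for BP, BPI and CD40 (0% of all genes in each), and 0 of 10 for UT (0.303% of all genes). At an unadjusted p under 0.05 there were 7, 10, 0 and 10 of the 10, and 973, 1323, 111 and 1535 genes in all. The lowest adjusted p was that of Tap2 in UT (2.94 ± 0.48, adjusted p 0.05109). DESeq2 called 3 of the 10 for BP, 8 for BPI, 8 for UT and 0 for CD40, among 114, 207, 226 and 3 genes. Without BP replicate 2 edgeR called 6 for BP, 10 for BPI and 10 for UT, beside 5.64%, 5.67% and 5.17% of all genes. Without IgG replicate 1 it called 2, 2 and 3 (2.78%, 3.74% and 4.13% of all genes), and without BP replicate 1 it called 8 for BPI (2.64%). Median differences were 1.504 for BP, 2.19 for BPI, -0.22 for CD40 and 2.54 for UT. Of the other pathway genes, Irf1 (3.90 ± 0.58, a transcription factor that interferon gamma induces) and Tapbpl (3.54), a tapasin relative, passed for UT by edgeR. Without BP replicate 1 the differences were 3.807 for Irf1 and 3.469 for Tapbpl (edgeR adjusted p 0.2195 for both), and without IgG replicate 2 they were 3.631 (0.08667) and 3.121 (0.08257). Their calls were also lost with free RNA subtracted, with doublets kept and with a clustering in which genes of the pathway could be among the variable genes (adjusted p 0.05053 to 0.06345), where the differences were 3.889 to 3.963 for Irf1 and 3.302 to 3.717 for Tapbpl. Of the variable genes in that clustering 7 were other pathway genes and 0 were among the 10.

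In T-like cells the levels of the 10 genes lay closer together. H2-K1 was at 3069 CPM in UT, 1499 and 1312 CPM in IgG, 2328 and 2015 CPM in BP, 2523 CPM in BPI and 1662 CPM in CD40, and H2-D1 at 6513, 2686 and 2741, 3091 and 3759, 4173 and 2917 CPM in the same order. Nlrc5 lay between 113 CPM (IgG replicate 2) and 213 CPM (BP replicate 1). Of the 10 genes, 8 exceeded both IgG libraries in BP (25.8% of 9220 genes), 9 in BPI (30.6%), 5 in CD40 (36.8%) and 9 in UT (39.3% of 9376 genes). Median differences were 0.33, 0.74, 0.07 and 1.15.

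No member passed in T-like cells by edgeR, where 0.922% of all genes passed for BP, 0.629% for BPI, 0.152% for CD40 and 2.56% for UT. At an unadjusted p under 0.05 there were 0 of the 10 genes for BP, 2 for BPI (Psmb9 and Psmb10), 0 for CD40 and 6 for UT, and 726, 636, 368 and 1316 genes in all. DESeq2 called 1 for UT and 0 for BP, BPI and CD40, among 91, 5, 14 and 0 genes. Without BP replicate 1 edgeR called 4 for UT (5.11% of all genes), and without BP replicate 2 it called 2 (3.41%). Ifng, in contrast, was at 284 CPM in UT, 57.3 and 85.6 CPM in IgG, 335 and 405 CPM in BP, 1577 CPM in BPI and 37.2 CPM in CD40. It rose by 2.18 ± 0.50 in BP (edgeR adjusted p 0.009036), 4.50 ± 0.56 in BPI (4.977e-09) and 1.90 ± 0.56 in UT (0.03896), while CD40 was at -1.08 ± 0.65 and did not pass. The BP and UT calls rest on both IgG libraries: without IgG replicate 1 the differences were 1.904 (edgeR adjusted p 0.3546) and 1.609 (0.428), and without IgG replicate 2 they were 2.618 (0.5219) and 2.384 (0.3721). With free RNA subtracted the differences were 2.17 for BP and 1.887 for UT, nearly as before, and the adjusted p was 0.2063 and 0.1046. With doublets kept the BP difference was 2.607 (0.1698), and the UT difference was 1.839 both by DESeq2 (0.07846) and with RLE factors (0.05043). The BPI call held in each of these fits. Irf8 rose in BPI (2.81) and UT (3.13), and both calls were lost without IgG replicate 2, where the differences were 1.671 (edgeR adjusted p 0.7927) and 2.037 (0.29). Irf8 was at 224 to 551 CPM in macrophage-like cells and 4.51 to 224 CPM in T-like cells. The macrophage markers in the T-like sums were at 2147 CPM in UT, 1564 and 1253 CPM in IgG, 1565 and 2538 CPM in BP, 2964 CPM in BPI and 803 CPM in CD40. Their part in the Irf8 result and in the differences of the 10 genes in T-like cells was not tested. In BPI the difference of Irf8 was 2.694 by DESeq2 (adjusted p 0.4794), 2.739 with free RNA subtracted (0.2392) and 1.876 with doublets kept (0.3719).

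Endothelial-like cells were too few for a test between groups, since IgG replicate 1 held 13 and BP replicate 2 held 6. With exact Poisson intervals of 95% that cover counting error only, H2-K1 was at 3411 CPM in UT (3268 to 3559), 795 CPM (682 to 922) and 484 CPM (456 to 514) in the IgG pair, 3354 CPM (3218 to 3495) and 1486 CPM (942 to 2229) in the BP pair, 3448 CPM in BPI (3155 to 3761) and 1008 CPM in CD40 (973 to 1044). B2m was at 8368 CPM in UT, 1138 and 566 CPM in IgG, 4178 and 1098 CPM in BP, 2954 CPM in BPI and 1202 CPM in CD40. Within set B, CD40 had 0.82 (Psmb10) to 2.12 (B2m) times the level of IgG replicate 2. Nlrc5 had 0 UMIs in BP replicate 2, where 3 counts would be 194 CPM. The subclusters differed as well: in UT the 33 cells of c0.3, led by Ubd, Ccl21a and Ccl19, had a summed level of the 10 genes of 29126 CPM, and the 21 cells of c0.0 had 9658 CPM. Cluster c0.3 held 54.1% of the endothelial-like cells of UT and 64.1% of those of BP replicate 1, but 1.12% of those of IgG replicate 2.

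Calr and Irf1, other genes of the pathway, are given for tumour-like cells. Calr encodes the chaperone calreticulin. It was at 611 CPM in UT, 893 and 614 CPM in IgG, and 628 and 834 CPM in BP. BPI was at 867 CPM and CD40 at 578 CPM. Calr had no order by group, and the libraries of set A were the highest. Irf1, an interferon-induced transcription factor, was at 183 CPM in UT, 21.1 and 23.6 CPM in IgG, 163 and 34.2 CPM in BP, 51.9 CPM in BPI and 24.7 CPM in CD40. Neither passed the test in tumour-like cells in any of the 4 contrasts. Of the 36 other pathway genes, 11 exceeded both IgG libraries in tumour-like cells of BP (9.35% of all genes), 14 in BPI (16.8%), 16 in CD40 (46%) and 24 in UT (40.1%). Below both IgG libraries lay 1, 10, 13 and 10 of the 36, beside 13.9%, 50.1%, 18.5% and 38.7% of all genes. The CD40 count above IgG is near the share of all genes, and 0 of the 36 passed in each contrast.

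Each immunoproteasome subunit can be set against the constitutive subunit that it replaces, which takes depth and total RNA out of the ratio. In tumour-like cells Psmb9 made up 60.8% of the UMIs of Psmb9 and Psmb6 in UT, 20.2% and 22.0% in IgG, 59.9% and 27.0% in BP, 39.7% in BPI and 25.5% in CD40. Psmb8 made up 85.7% of the UMIs of Psmb8 and Psmb5 in UT, 55.9% and 54.1% in IgG, 83.7% and 63.3% in BP, 74.3% in BPI and 59.0% in CD40. Psmb10 made up 44.7% of the UMIs of Psmb10 and Psmb7 in UT, 26.3% and 23.6% in IgG, 54.1% and 28.0% in BP, 38.8% in BPI and 22.9% in CD40. For Psmb9 and Psmb8, CD40 was above both IgG libraries, while the levels of both genes lay between those of the IgG libraries. For Psmb10 it was below both. In T-like cells the Psmb9 share ran from 61.2% in IgG replicate 2 to 74.4% in IgG replicate 1, and the Psmb8 share from 81.8% in BP replicate 1 to 90.4% in IgG replicate 2. The Psmb10 share of T-like cells was at 55.8% in UT and 60.5% in BP replicate 1, the lowest libraries. It reached 84.4% in IgG replicate 1 (67.2% to 94.7%, from 27 UMIs of Psmb10). In tumour-like cells UT and BP replicate 1 were the highest.

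**Figure D4:**
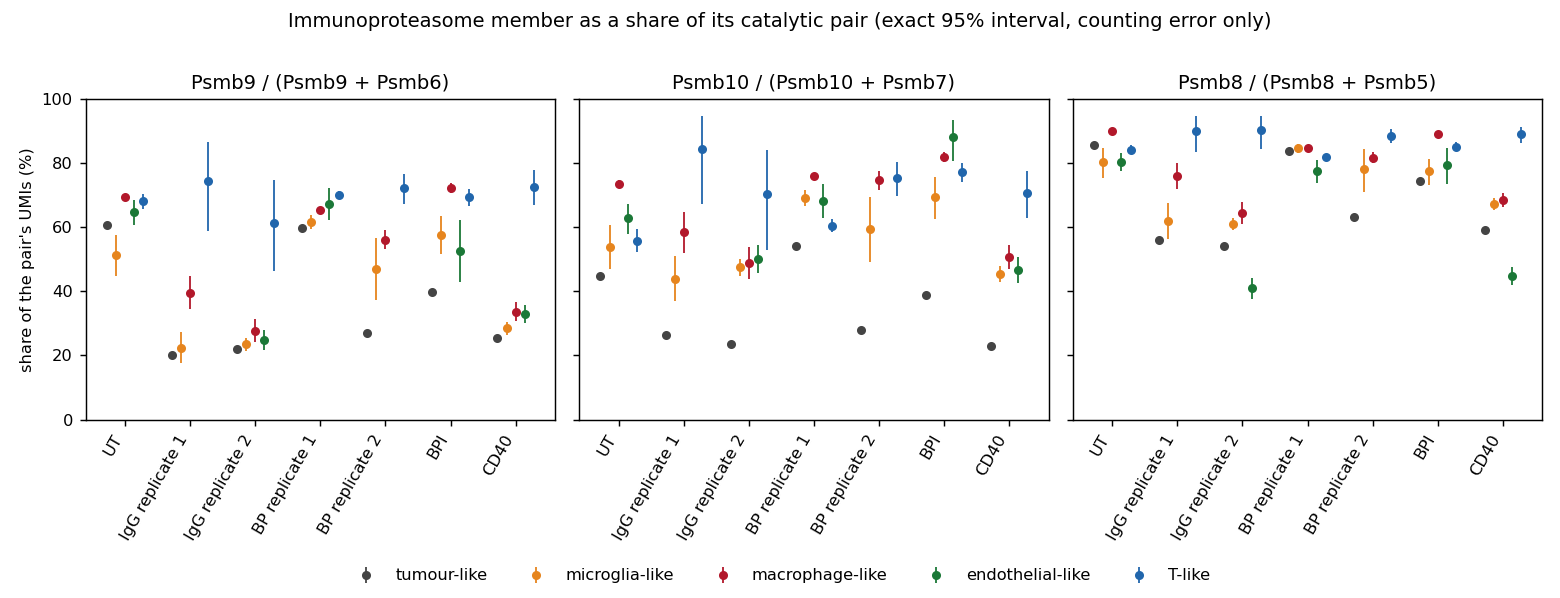
Share of each immunoproteasome gene in the UMIs of its catalytic pair (y axis, percent, with exact 95% intervals that cover counting error only) by library (x axis) and class (colour). Tumour-like cells run from 20.2% to 60.8% for Psmb9, while T-like cells lie between 61.2% and 74.4%. For Psmb10, UT and BP replicate 1 are the highest libraries in tumour-like cells and the lowest in T-like cells.

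Single tumour-like cells were compared after each cell was thinned to 2000 UMIs, which left out 37 to 120 cells per library. With this depth, 99.6% of cells in UT had a UMI of H2-K1 or H2-D1 (99.3% to 99.8%, exact binomial 95% interval), 69.2% (67.8% to 70.5%) and 53.2% (51.9% to 54.5%) in the IgG pair, 99.7% and 85.5% in BP, 91.8% in BPI and 61.5% in CD40. Without thinning all libraries were at 95.03% to 100%, at median depths of 10609 to 21737 UMIs. None of the 5 classes can be taken to lack these genes, so the share that free RNA alone would give was computed instead, which was 2.82% to 31.6%. B2m was in 99.8% of thinned cells in UT, 59.4% and 48.3% in IgG, 98.4% and 75.4% in BP, 85.1% in BPI and 57.9% in CD40. Tap1, a less abundant transcript, was in 46.7% in UT, 5.04% and 5.43% in IgG, 44.3% and 8.75% in BP, 13.4% in BPI and 5.203% in CD40.

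The summed UMIs of the 10 genes per cell differed between libraries at the low end as well as at the median. The median cell had 31 of 2000 UMIs in UT, 3 and 2 in IgG, 18 and 5 in BP, 8 in BPI and 3 in CD40. Cells at the 5th percentile had 11 in UT, 9 in BP replicate 1 and 2 in BPI, and 0 to 1 in the other 4 libraries. In IgG replicate 2 and in CD40 a tail lay above a low median, with 10 UMIs at the 95th percentile of both and 49 and 53 in the highest cell. The variance of the sum relative to its mean, which is 1 for pure counting noise of independent genes, was 6.72 in UT, 2.62 and 5.09 in IgG, 2.73 and 3.08 in BP, 3.26 in BPI and 4.85 in CD40. For 12 constitutively expressed genes it was 1.78 to 2.99, and for the 20 interferon-response genes 5.50 to 12.8. Where cells differ by the same relative amount, this ratio rises with the mean. It therefore does not rank the spread of libraries or gene lists whose means differ, as they do here.

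**Figure D5:**
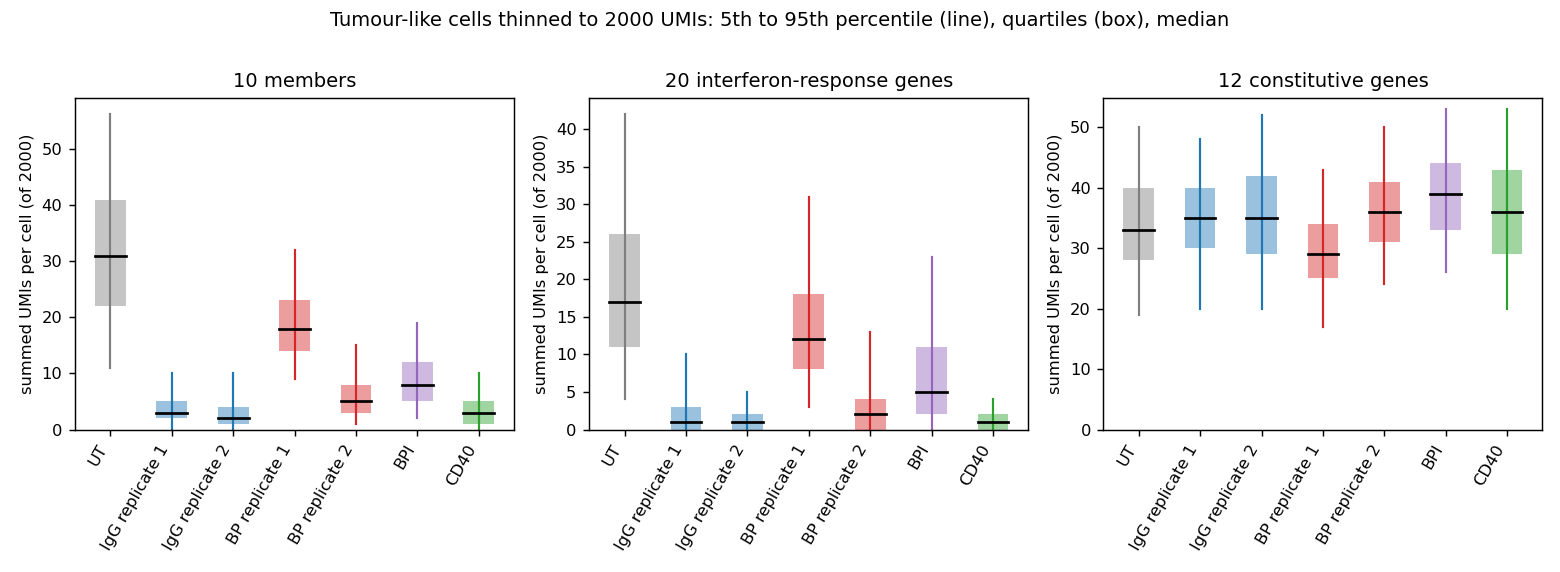
Summed UMIs per tumour-like cell, thinned to 2000 UMIs, of the 10 genes, of 20 interferon-response genes and of 12 constitutive genes (y axes) by library (x axis). Lines run from the 5th to the 95th percentile, boxes are quartiles and bars medians; the median of the 10 genes is 31 in UT, 18 in BP replicate 1 and 2 to 8 in the other libraries, while that of the constitutive genes lies between 29 and 39.

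Cells with one heavy chain had more of the other genes in sum. Thinned cells with a UMI of H2-K1 had 1.84 times the UMIs of the other 9 genes of cells without one in UT, 1.51 and 2.27 times in IgG, 1.29 and 1.59 times in BP, 1.53 times in BPI and 2.08 times in CD40. For the constitutive genes the ratio was 0.99 to 1.05. The sum is mostly H2-D1 and B2m, whose own ratios were 1.40 to 3.17 and 1.22 to 2.17. Single genes did not all follow: in BP replicate 1 the ratio was 0.941 for Nlrc5 and 1.06 for Tap1. For the interferon-response genes it was 1.29 to 2.28. The cells of a library share its depth and free RNA and are no replicates, so no test was made.

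Some of this spread followed clusters within a library. In IgG replicate 2 the 200 cells of c10, a tumour-like cluster led by Gfap, A2m and Igfbp5, had a summed level of the 10 genes of 5285 CPM, against 987 CPM in c22, 1020 CPM in c16, 1851 CPM in c12 and 1902 CPM in c17. In CD40 the 275 cells of c10 had 5932 CPM, against 1341 to 1866 CPM in the same 4 clusters. Cluster c10 was also high in BP replicate 1 (12489 CPM, against 8988 CPM in c9) and in UT (24964 CPM, against 13122 to 19335 CPM in c3, c4 and c9). H2-D1 in c10 was at 1560 CPM in IgG replicate 2 and 1925 CPM in CD40, and in c16 at 184 and 306 CPM. The interferon-response list moved with it, at 4142 CPM in c10 and 732 CPM in c16 of IgG replicate 2. In set A, c18 was above c20 in all 3 libraries: 2825 and 1604 CPM in IgG replicate 1, 3323 and 2474 CPM in BP replicate 2, and 4686 and 3084 CPM in BPI. In each of these clusters the libraries kept the order IgG, BP, BPI. The clusters also changed in share. Of the tumour-like cells, c18 held 15.0% in IgG replicate 1, 41.6% in BP replicate 2 and 54.5% in BPI. Cluster c20 held 37.0%, 16.35% and 6.57% in the same order. The part of this shift in the class sums was not tested.

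The estimated share of the 10 genes' counts that free RNA could supply had a median over genes and libraries of 2.67% in tumour-like cells, 6.54% in microglia-like, 3.99% in macrophage-like, 9.07% in endothelial-like and 3.42% in T-like cells. In tumour-like cells it was at most 14.8%, for Psmb10 in IgG replicate 1. With a profile from barcodes of 20 to 50 UMIs it was 15.9% (Tap1) to 72.9% (Tapbp) in tumour-like cells of CD40 and at most 10.4% in the other 4 libraries with a value. Some reads of H2-K1 and H2-D1 may match more than 1 gene. Of the 50-base stretches in the last 500 bases of their transcripts, 9.60% and 8.92% also occur in another gene. How the counting treated such reads could not be checked, so the levels of each heavy chain carry that uncertainty.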

How the data were processed

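The deposited files hold raw UMI counts per gene and barcode for 7 libraries of pooled mice. The authors' counting used Cell Ranger 4 per the file headers, whereas the submitters' processing notes name Cell Ranger 7.0.1 and mm10, and this difference was not settled. Groups follow the sample titles.

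Barcodes needed 1000 UMIs, 500 genes and no more than 15% of UMIs from mitochondrial genes. Doublets were taken out by Scrublet score (0.8% per 1000 cells). Clustering used scanpy 1.11.5 (2000 variable genes, 30 components, resolution 1), and clusters were named from 20 marker lists. Class sums per library entered edgeR 4.0.16 in R 4.3.3 (quasi-likelihood test, TMM, filterByExpr, Benjamini-Hochberg over all genes), where each library had at least 20 cells. One fit held the 6 treated or IgG libraries, and UT was compared in a fit of all 7. A group with 1 library borrows the spread of the IgG and BP pairs. Where an IgG or BP library was left out, only the other pair gave that spread. The p-values cover the spread between pooled libraries, not between mice. DESeq2 1.42.0 was an alternative. Tests were also run on simulated counts with a fixed spread and no library sets. Those runs do not show how the tests behave with the spread between these libraries. Free RNA was profiled from barcodes with 10 to 100 UMIs.

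All 10 genes were described whatever their values. Of 36 other pathway genes, 12 could be named whatever their values, and otherwise up to 3 per direction that passed. One of the 12 is not reported here. Genes and lists were chosen with earlier results of these data known. Positions are from GENCODE on GRCm38 and promoters from RefSeq.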

Additional observations from a re-analysis of the deposited data

Results flagged for a closer look

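Tap2 in CD40 lay on opposite sides of IgG in 2 classes. In tumour-like cells it was at 55.45 CPM in CD40, above the 47.82 and 52.73 CPM of IgG. In macrophage-like cells it was at 34.53 CPM, below the 53.96 and 39.96 CPM of IgG. The difference between the classes was not tested.

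NK-like cells entered no comparison. Their summed level of the 10 genes was 17985 CPM in UT, 9835 CPM in BP replicate 2 and 10776 CPM in BPI, above both IgG libraries (8978 and 6224 CPM), while BP replicate 1 (7860 CPM) and CD40 (7903 CPM) lay between them. IgG replicate 2 had 16 such cells.

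Cells that received no class name had 17488 CPM in UT, 10922 CPM in BP replicate 1, 2680 CPM in BP replicate 2, 4238 CPM in BPI and 1953 CPM in CD40, all above both IgG libraries (1739 and 1087 CPM).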

How the results depend on the processing

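With pools of mice, 2 libraries at most per group and sets of libraries that do not balance the groups, the tests between groups depend on how the spread is estimated. DESeq2 called 1 of the 10 genes in tumour-like cells for BP and 10 for UT, 2 and 3 in microglia-like cells for BP and UT, 3, 8 and 8 in macrophage-like cells for BP, BPI and UT, and 1 in T-like cells for UT, where edgeR called 0. Without the filter on low counts edgeR called 4, 3 and 4 in microglia-like cells for BP, BPI and UT. Of all genes 1.37%, 0.585% and 1.15% passed in these fits. In macrophage-like cells it called 4, 7 and 8 in the same order, beside 2.04%, 2.84% and 3.04% of all genes. With doublets kept it called 2 in T-like cells for UT, beside 0.439% of all genes. Leaving out 1 library at a time gave 0 to 10 (BP), 0 to 5 (BPI) and 0 to 8 (UT) in microglia-like cells, 0 to 6, 0 to 10 and 0 to 10 in macrophage-like cells, and 0 to 4 in T-like cells for UT. The upper ends came without BP replicate 2, except for T-like cells, where it was without BP replicate 1. The microglia counts for BPI and UT were 5 and 8 without BP replicate 1 as well. In tumour-like cells every such fit gave 0. A fit without an IgG or BP library takes its spread between replicates from the remaining pair alone. The cause of the differing counts was not tested.

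Replicate numbers do not pair the libraries. The log2 difference between IgG replicates 1 and 2 was correlated, over genes, with that between BP replicates 1 and 2. The correlation of these differences was -0.6705, 0.129, -0.2578 and -0.07662 in tumour-like, microglia-like, macrophage-like and T-like cells. With the replicate block 2 of the 10 genes passed for BP in macrophage-like cells, beside 1.7% of all genes. In the other 3 classes 0 of the 10 passed. A term for library set A, added after seeing the data, gave 3 for BP and 4 for BPI in macrophage-like cells. With that term 2.98% and 2.67% of all genes passed.

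Counts between classes moved by at most 1 gene. Single differences that turned sign were all short of the test: Tap1 between microglia-like and tumour-like cells (-0.02971 without the filter), Psmb8 in the same contrast (0.07889 without UT), and Nlrc5 between endothelial-like and tumour-like cells (-0.0853 without the filter, -0.07088 with free RNA subtracted, -0.05321 without UT, and between -0.003325 and 0.21 when 1 IgG or BP library was left out). Of the differences of the 10 genes from IgG under other settings, 0 of 1080 for BP, BPI and UT turned sign in tumour-like, microglia-like and macrophage-like cells. In T-like cells 13 of 360 did (H2-D1, Psmb8 and Psmb10 in BP, Tapbp in BPI, Psmb10 in UT) and for CD40 50 of 480 did. None of those turned values passed the test. In tumour-like, microglia-like and macrophage-like cells, every BP, BPI and UT library already lay above both IgG libraries, except for Tap2 in tumour-like BP. Leaving out 1 library could thus hardly turn a sign there, and the other settings reuse the same libraries. Of the genes named as passed between groups, Ifng and Irf8 in T-like cells and Irf1 and Tapbpl in macrophage-like cells lost calls in some settings. For Ifng in BP the replicate block gave a difference of 2.166 with an adjusted p of 0.1668.

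The share of tumour-like cells with a UMI of H2-K1 or H2-D1 follows the depth. Thinned to 1000 UMIs it was 98.25% in UT, 48.39% and 36.25% in IgG, 97.39% and 67.49% in BP, 79.77% in BPI and 42.84% in CD40, and thinned to 4000 UMIs 100%, 86.2%, 72.06%, 100%, 95.24%, 98.03% and 78.35%, with UT and BP replicate 1 highest at each depth. With pathway genes allowed among the variable genes of the clustering, IgG replicate 1 was at 70.65%. Of the 10 genes 0 were variable enough to enter, so this changed 7 other pathway genes and does not test the use of the 10. A free RNA profile from barcodes with 20 to 50 UMIs gave no value for IgG replicate 1 and BP replicate 2, and a highest share in tumour-like cells of 72.89%, for Tapbp in CD40.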
